A study of Mus musculus with 12 samples.

Results

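Potassium channel genes were followed in the hippocampus of adult mice that had been exposed to ethanol through the dam, to maternal separation after birth, to both or to neither. The 78 genes are the protein-coding genes whose symbol begins with Kcn and whose TPM (a level corrected for transcript length and library size), summed over the transcripts of the gene, averaged 0.5 or more over 12 mice. They were taken from 94 such genes and from 35580 genes in all. Of the others, 15 lay below the minimum and Kcne2, a subunit abundant in choroid plexus, was left out by name. Just inside the minimum were Kcnh8 at a mean of 0.657 TPM, Kcnh6 at 0.681 TPM and Kcnq1 at 0.687 TPM, and just outside it were Kcnh4 at 0.421 TPM, Kcnj5 at 0.403 TPM and Kcnmb1 at 0.364 TPM. All 78 genes passed the filter on low values used for the tests.

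The study has 4 groups of 3 male mice labelled C57BL/6 (C57BL/6J in the paper's methods), whose tissue was taken at postnatal day 70. Control mice had neither exposure. The dams of ethanol mice could choose to drink 10% ethanol in water during gestation. By the paper's methods this voluntary exposure began before mating and lasted until postnatal day 10, so that it overlapped the days of separation. Stress mice spent 3 h of each day alone, away from the nest, between postnatal days 2 and 14, and ethanol + stress mice had both. All groups share strain, sex, age and tissue, and the 3 comparisons with control share the same 3 control mice. The paper's methods divide every litter at random between separation and no separation, so that stress mice share litters with control mice and ethanol + stress mice with ethanol mice by design. Which of the 12 mice were siblings is not given in the sources used here, and p-values measure the spread between these mice. By the low values of the deposited table the libraries hold 12050000 to 14920000 read pairs. Every marker of the 14 lists of cell types, the pan-neuronal and excitatory ones included, was detected in every mouse. The values of a library sum to between 889222 and 1173650, and only ethanol 2, ethanol + stress 2 and ethanol + stress 3 (numbers are replicates) exceed 1100000. These libraries stand apart in the results given below.

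Potassium channels let potassium ions leave or enter a cell and thereby set its resting potential, end its action potentials and pace its firing. Voltage-gated channels (Kcna, Kcnb, Kcnc, Kcnd, Kcnh and Kcnq) open on depolarisation. Silent subunits (Kcnf, Kcng, Kcns and Kcnv) form no working channel alone and modify Kcnb channels. Inward rectifiers (Kcnj) and two-pore channels (Kcnk) carry current near rest, and ion-activated channels (Kcnma, Kcnn, Kcnt and Kcnu) open with internal calcium, sodium or a change in pH. Auxiliary proteins (Kcnab, Kcne, Kcnip and Kcnmb) bind the pore-forming subunits, and Kcnrg, a regulator of channel assembly, was placed with them. In the hippocampus, Kcnd2 with Kcnip proteins carries the dendritic A-type current, Kcnq channels carry the M-current, and Kcnc channels allow interneurons to fire fast.

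What the pore-forming genes share in sequence is the selectivity filter, the short stretch of the pore that passes potassium and holds back sodium. The 5 codons searched encode threonine or serine, any residue, glycine, then tyrosine, phenylalanine or leucine, and glycine again. They were searched in frame on the coding strand of the protein-coding transcript with the highest level of each gene, and a match is a description of letters only. A match was found in 64 of the 78 genes (82.1%), against 1100 of 21852 protein-coding genes (5.03%). All 27 voltage-gated, 12 inward rectifier, 9 silent and 10 two-pore genes held one, as did 6 of the 7 ion-activated genes, and 0 of the 13 auxiliary genes did. All 10 two-pore genes held at least 2 matches, as each of their subunits brings a pair of pore loops. The remaining ion-activated gene was Kcnu1, known from sperm, whose best-measured transcript is a short one. The filters of 8 genes named below, from each of the 5 classes that held a match, are shown so that the signature can be seen across the classes, with the 15 filter bases in capitals. They are from GENCODE transcripts of GRCm38, 5′ to 3′ on the coding strand.
Kcnc2: accatgactACCTTAGGTTACGGGgatatg
Kcnh3: agtctcaccAGTGTGGGCTTCGGCaacgtg
Kcnv1: tccatgactACAGTAGGATATGGGgacatt
Kcns3: agtatgaccACAGTGGGCTATGGAgacacc
Kcnj8: gttcaagtgACCATTGGGTTTGGAgggaga
Kcnj13: acacaacttACAATTGGTTATGGTaccatg
Kcnk6, its downstream match: tctctgtccACCATTGGCCTAGGGgactac
Kcnma1: acaatgtctACAGTGGGTTATGGGgacgtt
Each window lies within 1 coding exon. The Kcnc2 window is at chr10:112456220-112456249 on the plus strand in exon 3 of 5. The Kcnh3 window is at chr15:99232920-99232949 on the plus strand in exon 8 of 15, and that of Kcnv1 at chr15:45109283-45109312 on the minus strand in exon 3 of 3. The window of Kcns3 is at chr12:11091569-11091598 in exon 3 of 3, that of Kcnj8 at chr6:142566442-142566471 in exon 3 of 3 and that of Kcnj13 at chr1:87389015-87389044 in exon 2 of 3, all on the minus strand. The window of Kcnk6 is at chr7:29225530-29225559 in exon 2 of 3 and that of Kcnma1 at chr14:23528407-23528436 in exon 8 of 30, both on the minus strand.

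The mean levels of the 78 genes over the 12 mice spanned from 0.657 to 369 TPM, with a median of 13.4 TPM. A mean of 50 TPM or more was reached by 10 genes, which together held 50.6% of the summed TPM of all 78, and a mean of 10 TPM or more by 44. The auxiliary genes held 38% of the sum with 13 genes, the voltage-gated genes 26.8% with 27 genes, the inward rectifiers 14.4% with 12, the ion-activated genes 8.17% with 7, the two-pore genes 6.61% with 10 and the silent subunits 5.96% with 9. Sorted by level, 76 of the 77 pairs of neighbours had overlapping ranges over the 12 mice. The single gap was between Kcnab2 and Kcnab1.

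The highest level belonged to an auxiliary gene. Kcnab2, the Kvβ2 subunit that binds Kcna channels, ranged from 327 to 415 TPM around a mean of 369 TPM, and Kcnab1, the Kvβ1 subunit, from 87.8 to 106 TPM around 98.3 TPM. Kcnip2, a calcium-binding partner of Kcnd channels, averaged 95.9 TPM and Kcnmb4, the neuronal β subunit of the large-conductance calcium-activated channel, 65.2 TPM, while Kcne1l averaged 5.87 TPM and Kcnrg 0.749 TPM. Beside the pore-forming genes Kcnd2 at 50.5 TPM and Kcnma1 at 51.3 TPM, the partners lay on both sides. Kcnip2 and Kcnmb4 were higher, but Kcnip3 at 48.4 TPM, Kcnip4 at 40.4 TPM, Kcnip1 at 18.03 TPM and Kcnmb2 at 4.63 TPM were lower.

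Among other voltage-gated genes the mean was 40.3 TPM in Kcnc2. It was lower in Kcnh3, a channel of forebrain neurons, at 33.9 TPM, Kcna1 at 32.9 TPM and Kcnq3, an M-current subunit, at 24.3 TPM. The silent subunits were led by Kcnf1 at 30.7 TPM, Kcnv1 at 25.6 TPM, Kcng2 at 16.8 TPM and Kcns2 at 15.3 TPM.

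Of the inward rectifiers, Kcnj3, a G protein-gated channel subunit, averaged 68.3 TPM and its partners Kcnj6 and Kcnj9 42.1 and 33.4 TPM. Kcnj4, a strong inward rectifier of forebrain neurons, averaged 58.5 TPM and Kcnj10, the channel of astrocytes, 25.2 TPM. Kcnk1 led the two-pore genes at 70.0 TPM, Kcnt2, a sodium-activated channel, averaged 46.6 TPM, Kcnn2, a small-conductance calcium-activated channel, 38.0 TPM, and Kcnu1 4.44 TPM. The coefficient of variation over the 12 mice had a median of 18.2% and ran from 5.64% in Kcnip1 to 91.2% in Kcnj13, whose level differed 30.0-fold between its lowest and highest mouse.

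**Figure D1:**
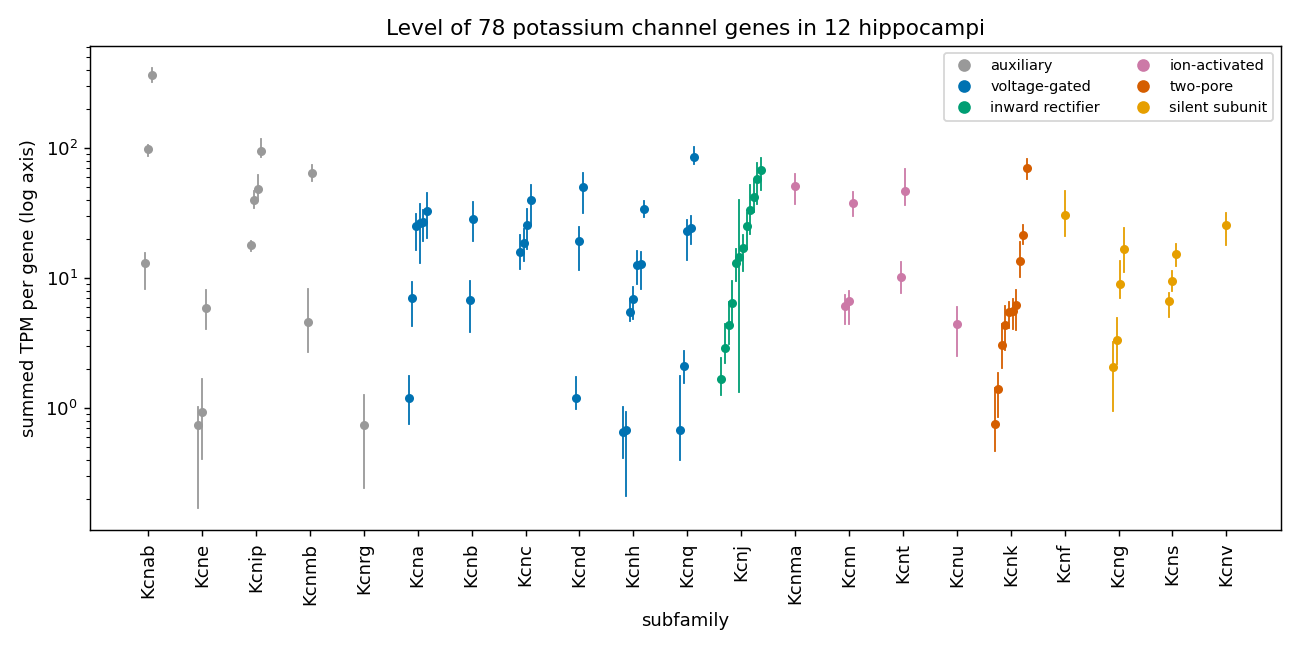
Mean level of each of the 78 genes (points) with the lowest and highest of 12 mice (lines), as summed TPM on a log axis, by subfamily and coloured by class. Kcnab2 stands above the rest at 369 TPM, and the longest line among the genes above 10 TPM is that of Kcnj13.

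The first comparison asks what ethanol alone left in the adult hippocampus. No potassium channel gene passed the test: 0 of 78 had a limma p under 0.01, where 0.678% of all 18434 genes tested had, and 2 had a p under 0.05, where 3.63% of all genes had. The lowest Benjamini-Hochberg adjusted p of the 78 was 0.997. The median log2 fold change was -0.04 for the 78 genes and 0.02 for all genes tested, and 28 of the 78 (35.9%) were above 0, against 55.6% of all genes. Without ethanol 2 the median was 0.02 and 46 were above 0. With libraries rescaled to a common total it was -0.12 and 21 were above 0, against a median of -0.05 and 38.6% above 0 for all genes. By class, the medians ran from -0.09 in voltage-gated genes, 19 of 27 below 0, to 0.02 in two-pore genes. All 3 ethanol values lay outside the control range in 6 of the 78 genes (7.69%), against 8.25% of all genes. Kcnh3, Kcnh6, Kcnj8 and Kcnk6 lay above it (5.13%, against 5.06% of all genes) and Kcnab1 and Kcns3 below it (2.56%, against 3.19%).

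Kcnab1 had the smallest p among these, with a level of 105, 106 and 104 TPM in the control mice and 87.8, 90.6 and 94.4 TPM in the ethanol mice. These groups did not overlap, with means of 105 ± 1.25 and 90.9 ± 3.33 TPM (SD, n = 3 each). On the log2(TPM + 0.5) scale the fold change was -0.21 (SE 0.08), which missed the threshold of p under 0.01 (limma, adjusted p = 0.997). With the length trend of each library removed it was -0.22 (SE 0.07) and passed that threshold (limma, adjusted p = 1). About 2218 read pairs per library (median) stood behind this gene.

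Kcnk6 (TWIK-2, a two-pore channel found in vessels and immune cells) lay on the other side. It measured 1.04, 1.08 and 0.864 TPM in control mice and 1.72, 1.88 and 1.23 TPM in ethanol mice, so that each ethanol mouse exceeded each control. Its log2 fold change of 0.49 (SE 0.19) was again short of the threshold (limma, adjusted p = 0.997). Without ethanol 3 it was 0.62 (SE 0.20) and passed (limma, adjusted p = 0.695). Its level rested on a median of 46.3 read pairs per library, between 26.9 and 60.6.

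Kcnh3 measured 31.6, 34.7 and 31.0 TPM in control mice and 36.0, 39.6 and 36.1 TPM in ethanol mice. The difference was 0.20 (SE 0.10) on the log2 scale and did not pass (limma, adjusted p = 0.997). At the level of subfamilies, 0 of 21 sums lay outside the control range. The largest sum, that of the 3 Kcnab genes, was 470 ± 12.2 TPM in ethanol mice and 468 ± 28.4 TPM in control mice (SD, n = 3 each).

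The second comparison concerns maternal separation alone. Again 0 of 78 genes had a limma p under 0.01, against 0.51% of all genes, and 1 had a p under 0.05, against 2.4%. The lowest adjusted p of the 78 was 1. Their median log2 fold change was -0.02, against 0.00 for all genes, and 35 (44.9%) were above 0, against 51.5%. Without stress 1 the median was 0.03 and 34 were below 0, and with libraries rescaled to a common total it was -0.04 and 29 were above 0, against -0.01 and 46% for all genes. Of the 6 genes whose stress values all lay outside the control range (7.69%, against 7.2% of all genes), Kcnh5, Kcnj13, Kcnk6 and Kcns1 were above it (5.13%, against 3.81%) and Kcnj16 and Kcns3 below it (2.56%, against 3.39%). Again 0 of 21 subfamily sums lay outside it.

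Kcns3, a silent subunit that lends its properties to Kcnb channels and is known from parvalbumin interneurons, measured 10.8, 10.8 and 11.4 TPM in control mice and 8.37, 7.99 and 9.33 TPM in stress mice. It was also below the controls in ethanol mice, at 9.31, 8.80 and 9.58 TPM, and in ethanol + stress mice, at 10.5, 10.7 and 7.95 TPM. The last group came to within 0.1 TPM of the lowest control in 1 mouse. The log2 fold change was -0.34 (SE 0.13) in stress mice (limma, adjusted p = 1), -0.24 (SE 0.13) in ethanol mice and -0.18 (SE 0.13) in ethanol + stress mice, none of which passed.

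Kcnk6 measured 1.19, 1.18 and 1.80 TPM in stress mice, above all controls but with 1 mouse well above the other two. Its log2 fold change of 0.33 (SE 0.19) did not pass (limma, adjusted p = 1). Kcnu1 measured 6.03, 4.07 and 5.15 TPM in control mice, while stress mice overlapped with them at 4.92, 2.52 and 3.61 TPM. Its log2 fold change of -0.44 (SE 0.21) did not pass, and was -0.65 (SE 0.20) and passed without stress 1 (limma, adjusted p = 1 for both). Without control 1 another gene passed, Kcne3, an auxiliary subunit measured at a median of 4.94 read pairs, at 0.75 (SE 0.22; limma, adjusted p = 1). Kcne3 passed without control 1 in ethanol + stress mice too, at 0.77 (limma, adjusted p = 0.828).

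**Figure D2:**
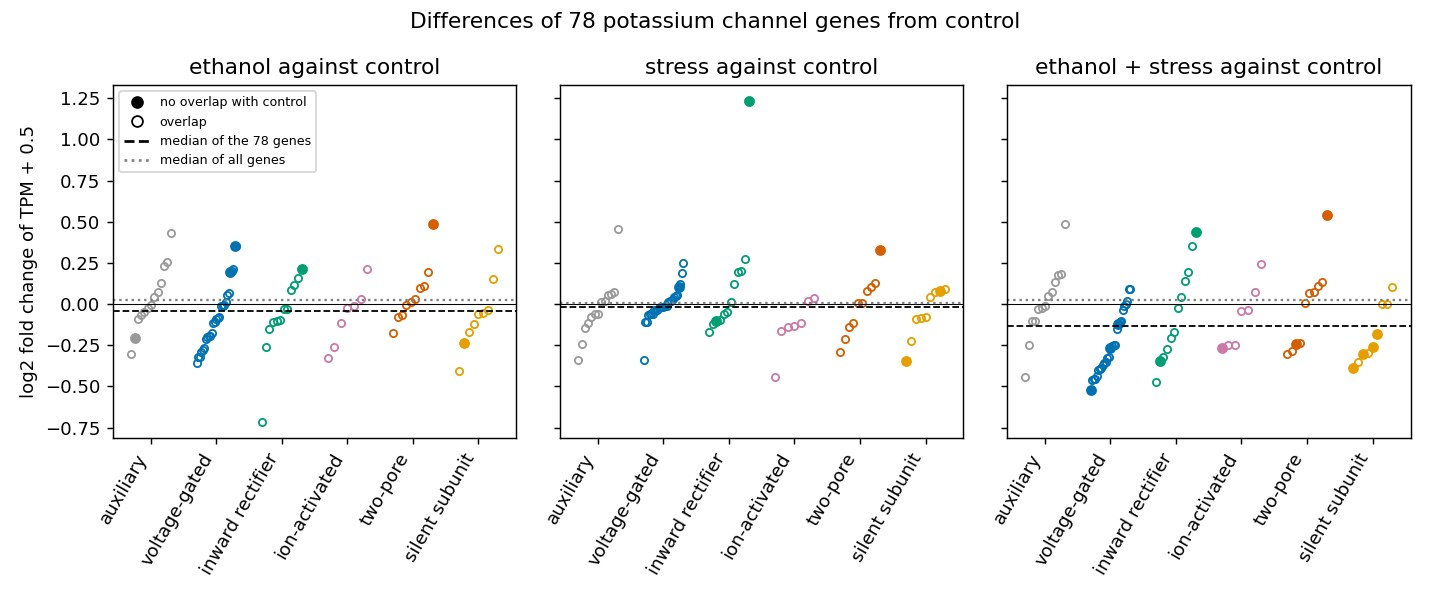
Log2 fold change of each of the 78 genes from control on the log2(TPM + 0.5) scale, by class, in 3 panels. Filled points are genes whose 3 treated values all lay outside the control range (6, 6 and 12 genes), open points the others; the dashed line is the median of the 78 genes (-0.04, -0.02 and -0.14) and the dotted line that of all genes tested (0.02, 0.00 and 0.02).

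In ethanol + stress mice more genes lay on the low side. As above, 0 of 78 genes had a limma p under 0.01, against 0.971% of all genes, and 4 had a p under 0.05, against 5.37%. The lowest adjusted p of the 78 was 0.791. The median log2 fold change of the 78 was -0.14, against 0.02 for all genes, and 26 of the 78 (33.3%) were above 0, against 54.1% of all genes. With libraries rescaled to a common total the median was -0.26 and 12 were above 0, against -0.09 and 34.2% for all genes. The treated values all lay outside the control range in 12 genes (15.4%), against 10.2% of all genes. Of these, Kcnj8 and Kcnk6 lay above it (2.56%, against 5.63%) and 10 lay below it (12.8%, against 4.62% of all genes below it). The 10 were the voltage-gated Kcnc2, Kcnd1 and Kcnq3, the silent Kcng1, Kcns1, Kcns3 and Kcnv1, the inward rectifier Kcnj4, the two-pore Kcnk3 and the calcium-activated Kcnn3. By class, the voltage-gated genes had a median of -0.27 with 23 of 27 below 0, the silent subunits -0.26 with 6 of 9 below 0, and the inward rectifiers -0.10, while the ion-activated, auxiliary and two-pore genes had medians of -0.04, -0.01 and 0.04.

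Kcnv1, a silent subunit of forebrain neurons, measured 30.9, 26.7 and 27.0 TPM in control mice and 23.3, 18.02 and 23.3 TPM in ethanol + stress mice. These did not overlap, at 28.2 ± 2.34 and 21.5 ± 3.04 TPM (SD, n = 3 each), and the ethanol and stress mice averaged 25.8 ± 1.45 and 26.8 ± 4.59 TPM, with stress 3 above all controls at 32.1 TPM. A log2 fold change of -0.39 (SE 0.14) missed the threshold (limma, adjusted p = 0.791). It passed when only protein-coding transcripts were summed, at -0.35 (SE 0.11), and on recovered read pairs, at -0.37 (SE 0.11; limma, adjusted p = 0.759 and 0.748).

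Kcnc2 (Kv3.2), a fast channel of interneurons, measured 46.5, 44.7 and 48.9 TPM in control mice and 44.5, 26.0 and 29.1 TPM in ethanol + stress mice. The first of these lay only just below the lowest control, and the others far below. Of the 6 interneuron markers, Gad1, Gad2 and Slc32a1 were lower in ethanol 2, ethanol + stress 2 and ethanol + stress 3 than in every other library (Gad1 at 147, 159 and 143 TPM, against 167 to 208 TPM). Sst overlapped, Pvalb was higher than elsewhere in ethanol 2 and ethanol + stress 2, at 93.1 and 92.3 TPM, and Vip was highest in ethanol + stress 2. The sum of the list was 663 to 766 TPM in control and 659 to 679 TPM in ethanol + stress mice, and the part of these markers in the Kcnc2 values was not tested. A log2 fold change of -0.52 (SE 0.23) did not pass (limma, adjusted p = 0.791). Without ethanol + stress 1 it was -0.75 (SE 0.22) and passed, as did Kcnq5, another M-current subunit, at -0.73 (SE 0.18), Kcnc1, the Kv3.1 gene, at -0.72 (SE 0.23), Kcna1 at -0.69 (SE 0.22) and Kcnd2 at -0.66 (SE 0.21), all with a limma adjusted p of 0.237. The group was then only the 2 mice whose libraries stand apart. The share of all genes that passed in this fit is not given here, so that these calls cannot be read as particular to potassium channels.

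Genes on the high side were few. Kcnk6 measured 1.77, 1.48 and 1.78 TPM in ethanol + stress mice, above all controls, and had the smallest p of the 78 genes in this comparison, with a log2 fold change of 0.54 (SE 0.19; limma, adjusted p = 0.791) that did not pass. On recovered read pairs it passed in both ethanol mice, at 0.59 (SE 0.18), and ethanol + stress mice, at 0.62 (SE 0.18), and in the latter also in the fit without a variance trend (limma, adjusted p = 0.996, 0.748 and 0.807). Kcnk6 was thus above every control in all 9 treated mice, in comparisons that share those controls. The same was true of the blood markers (4 haemoglobin genes and Alas2), which summed to 1603 to 2022 TPM in control, 3146 to 6815 TPM in ethanol, 2593 to 3392 TPM in stress and 2454 to 6480 TPM in ethanol + stress mice. Their part in the Kcnk6 values was not tested. Kcnj8 (Kir6.1), the ATP-sensitive channel of pericytes and smooth muscle, measured 2.36, 2.50 and 2.34 TPM in control mice and 2.87, 4.43 and 3.15 TPM in ethanol + stress mice. Its log2 fold change of 0.44 (SE 0.18) did not pass (limma, adjusted p = 0.791), and the endothelial and pericyte markers summed to 107 to 132 TPM in control and 116 to 131 TPM in ethanol + stress mice.

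**Figure D3:**
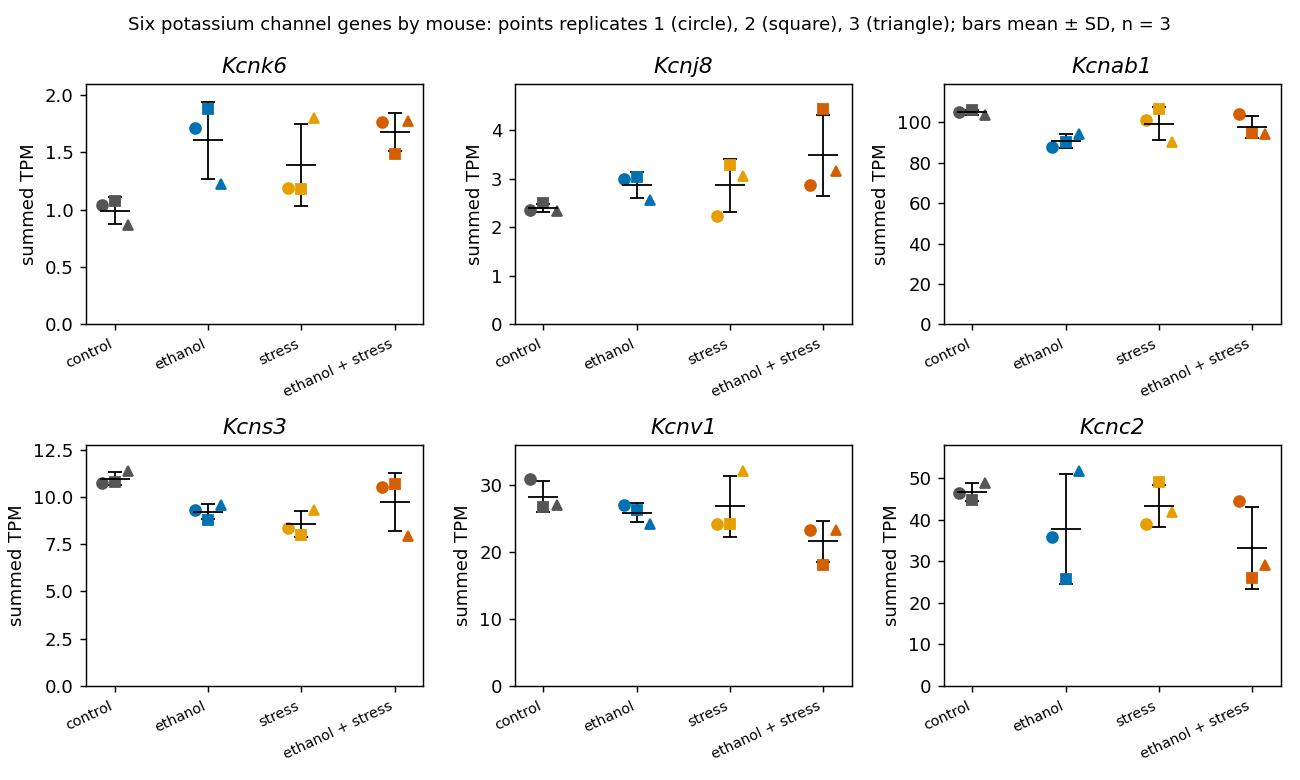
Summed TPM of 6 genes in each of 12 mice, with the mean and SD of each group (n = 3) as bars; axes start at 0. Kcnk6 lies above the controls in every treated mouse, whereas in Kcnc2 the lowest ethanol and ethanol + stress mice, at 25.7 and 26.0 TPM, belong to libraries with a sum over 1100000.

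The sums of the subfamilies in ethanol + stress mice stood apart from control in 2 of 21. Of all single genes tested, 10.2% lay outside the control range in this comparison. A share for sums over other genes is not given here, so that this count cannot be read as particular to potassium channels. In control mice the 12 Kcnj genes summed to 293, 289 and 290 TPM, and in ethanol + stress mice to 285, 267 and 263 TPM. The ratio of means was 0.935. Kcnj13, one of the 12, averaged 19.1 ± 18.9 TPM in ethanol + stress mice, above its control mean of 8.34 ± 3.19 TPM (SD, n = 3 each). This gene varied with most choroid plexus markers, as described below, and its part in the Kcnj sum was not tested. Kcnv, which is Kcnv1 alone, had a ratio of 0.764. In control and ethanol + stress mice the Kcnc sum was 110 ± 4.79 and 86.8 ± 24.1 TPM, the Kcnd sum 79.2 ± 4.64 and 62.8 ± 23.7 TPM and the Kcna sum 129 ± 6.39 and 105 ± 29.7 TPM (SD, n = 3 each). The spread in these ethanol + stress sums was larger than in control, and each overlapped with control through ethanol + stress 1. Kcnab genes summed to 503 ± 29.0 TPM against 468 ± 28.4 TPM. In bulk tissue, fewer cells that express a gene and less RNA per cell cannot be told apart.

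The potassium channel genes were not equally low in all ethanol + stress libraries. The median deviation of the 78 genes from their mean over the 12 mice was -0.16 in ethanol + stress 2, -0.11 in ethanol + stress 3 and -0.14 in ethanol 2 on the log2 scale, but 0.08 in ethanol + stress 1, and -0.05 to 0.14 in the other 8 libraries. The 3 low libraries are those with a sum over 1100000. With 1 mouse left out at a time, the median log2 fold change of the 78 genes in ethanol + stress mice moved from -0.14 to -0.08 without ethanol + stress 2, -0.12 without ethanol + stress 3 and -0.22 without ethanol + stress 1, with 52, 51 and 55 of the 78 below 0. In ethanol mice it moved from -0.04 to -0.13 without ethanol 3, with 54 below 0. Leaving out all 3 low libraries left 1 ethanol + stress mouse, whose values alone then gave 0.04. Those libraries had been seen to be low, so that this value is no test.

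The low libraries also differed from the others by transcript length, and potassium channel transcripts are long: the median length was 3294 bases for the 78 genes and 2275 bases for all genes tested. Across all genes, the deviation fell with each doubling of length by 0.10 in ethanol 2, 0.09 in ethanol + stress 2 and 0.07 in ethanol + stress 3 on the log2 scale. The 39 longer potassium channel genes had median deviations of -0.31, -0.36 and -0.18 in those libraries, the 39 shorter ones -0.03, -0.06 and -0.03. In ethanol + stress mice 31 of the 39 longer genes and 21 of the 39 shorter genes had a fold change below 0, with medians of -0.25 and -0.02. With the length trend removed from each library, the median of all 78 was -0.12, with 53 below 0. Markers of cell types also differed in the same 3 libraries (ethanol 2, ethanol + stress 2 and ethanol + stress 3, in that order). Of the 6 pan-neuronal and excitatory markers, 4 were lower there than in each of the other 9. Syt1 measured 280, 250 and 284 TPM, against 399 to 539 TPM in the others, Rbfox3 73.2, 65.4 and 69.7 TPM, against 85.8 to 99.8 TPM, and Slc17a7 340, 311 and 343 TPM, against 381 to 461 TPM. Neurod6 was the fourth, while Camk2a was higher there, at 667, 688 and 760 TPM against 462 to 626 TPM, and Snap25 overlapped. The sum of the list, at 2935 to 3391 TPM over the 12 mice, is carried by Snap25 and Camk2a. The astrocyte markers summed to 1101, 1111 and 1173 TPM, against 738 to 967 TPM in the others. Aqp4 and Gja1 of this list overlapped with the others through ethanol 2. The oligodendrocyte markers summed to 5218, 6062 and 6011 TPM, against 4302 to 4679 TPM in control mice, but stress 1 had 5546 TPM as well. Among them Mobp was higher than in every other library, and Mag, at 203, 207 and 217 TPM, lower than the 224 to 248 TPM of control mice. The CA1 markers summed to 175, 170 and 190 TPM, against 193 to 252 TPM in the others, though Mpped1 overlapped. The CA3 markers summed to 149, 148 and 139 TPM, against 98.0 to 125 TPM, but Socs2 was lower there and Iyd overlapped. The blood markers summed to 6815, 6480 and 3977 TPM, against 1603 to 3472 TPM, though Hba-a1 and Alas2 overlapped. The part of all these markers in the low values was not tested.

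**Figure D4:**
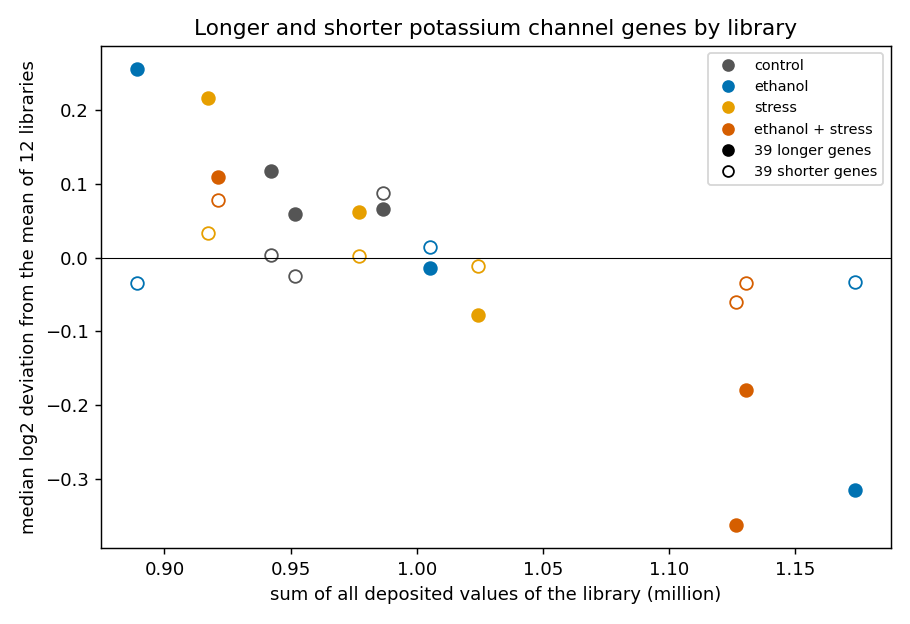
Median log2 deviation of the 39 longer (filled) and 39 shorter (open) potassium channel genes from their mean over 12 mice, against the sum of all deposited values of the library. The 3 libraries on the right, with sums over 1100000, hold the lowest longer genes (-0.18 to -0.36), while their shorter genes lie between -0.03 and -0.06.

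Whether the combined exposure differed from the sum of the single ones was asked by the interaction. It passed in 0 of 78 genes (0.461% of all genes), and 2 had a limma p under 0.05 (2.69% of all genes). The lowest adjusted p was 1, and the median was -0.12, against -0.01 for all genes. The interaction was above 0 in 19 of the 78 (24.4%), against 48% of all genes. The 2 genes were Kcnu1, with an interaction of 0.66 on the log2 scale, and Kcns3, with 0.40. In both, the single exposures lay further below control than the combined one. Kcnu1 averaged 5.09 ± 0.98 TPM in control, 4.11 ± 0.09 TPM in ethanol, 3.68 ± 1.21 TPM in stress and 4.87 ± 0.35 TPM in ethanol + stress mice (SD, n = 3 each).

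Kcnj13 (Kir7.1), an inward rectifier of epithelia such as the choroid plexus, varied more than any other of the 78 genes. It measured 8.01, 5.32 and 11.7 TPM in control mice, 22.3, 1.67 and 2.26 TPM in ethanol mice, 12.2, 40.2 and 14.6 TPM in stress mice and 16.9, 39.02 and 1.34 TPM in ethanol + stress mice. All stress mice exceeded the controls, and the other groups spread over both sides. In stress mice the log2 fold change of 1.23 (SE 1.06) did not pass (limma, adjusted p = 1). In ethanol + stress mice it was 0.35 (SE 1.06) and turned to -0.58 without ethanol + stress 2.

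The mice low in Kcnj13 were also low in most, but not all, marker genes of the choroid plexus. Ttr, the transthyretin gene, measured 1251, 591 and 1782 TPM in the controls, 3424, 70.7 and 30.0 TPM in ethanol, 1785, 5100 and 1600 TPM in stress and 2235, 7089 and 191 TPM in ethanol + stress mice. Stress 2 and ethanol + stress 2 were the highest in both genes, and ethanol 2, ethanol 3 and ethanol + stress 3 the lowest. All 8 markers of this list were detected in every mouse, with sums of 629 to 1854 TPM in control, 50.4 to 3544 TPM in ethanol, 1660 to 5276 TPM in stress and 219 to 7261 TPM in ethanol + stress mice. These sums are carried by Ttr. Ethanol 2, ethanol 3 and ethanol + stress 3 were the lowest mice in 7 of the 8 markers, but not in Tmem72, where they had 10.6, 10.3 and 10.2 TPM, above the 9.13 to 9.85 TPM of control mice. Their part in the Kcnj13 differences was not tested.

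**Figure D5:**
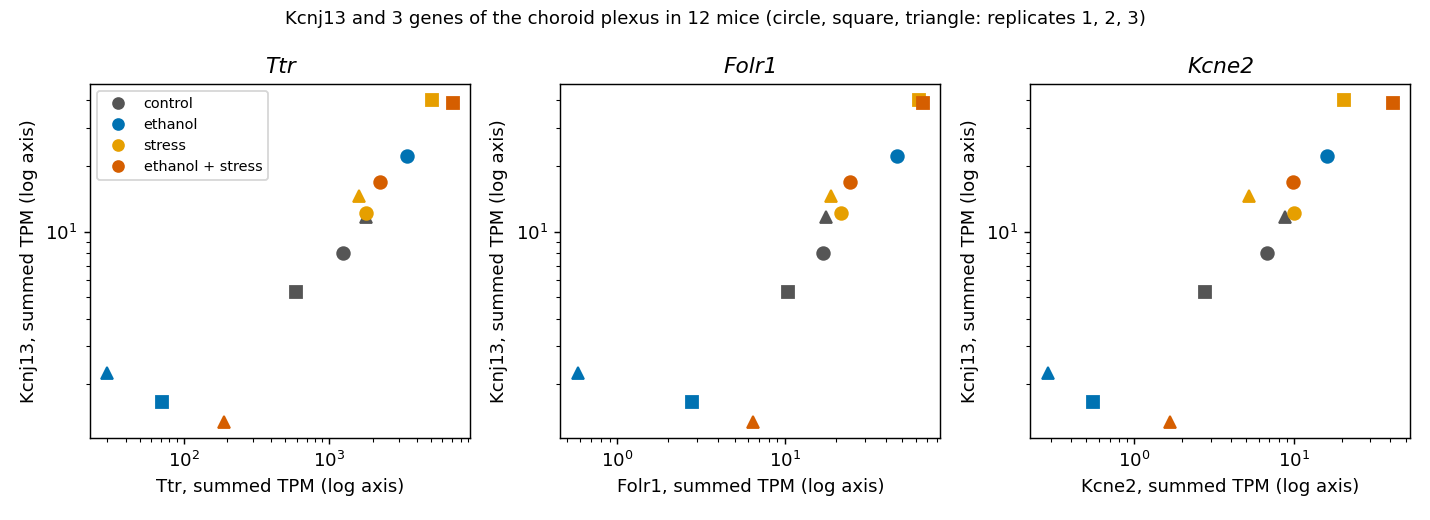
Kcnj13 against Ttr, Folr1 and Kcne2, 3 genes of the choroid plexus, as summed TPM on log axes, with 1 point per mouse. The mice with the most Kcnj13 (40.2 and 39.02 TPM) also hold the most Ttr (5100 and 7089 TPM), and those with the least Kcnj13 hold the least Ttr.

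Single transcripts of the genes were tested in the same way, since a shift between transcripts can leave the sum of a gene unmoved. Of 232 transcripts tested, 1 passed for ethanol (0.431%, against 1.26% of all 59852 transcripts), 1 for stress (0.431%, against 0.914%), 4 for ethanol + stress (1.72%, against 1.21%) and 3 for the interaction (1.29%, against 0.854%). Adjusted p-values were at or above 0.769 for all of them. Levels of single transcripts are estimates that divide shared read pairs among transcripts, and an exact 0 can be a failed estimate.

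In ethanol mice the transcript ENSMUST00000225582.1 of Kcnrg (chr14:61607457-61612822) rose from 0.409, 0.161 and 0.351 TPM in control to 0.809, 0.727 and 1.19 TPM, by 0.80 (SE 0.26) on the log2 scale (limma, adjusted p = 0.779). The call was lost in all 6 fits that left out 1 control or ethanol mouse, where the value lay between 0.66 and 0.89, and with a pseudocount of 0.1, where it was 1.34 (SE 0.50). In ethanol + stress mice ENSMUST00000037012.2 of Kcna4, an A-type channel of axons, fell from 21.8, 19.9 and 19.5 TPM to 16.1, 10.3 and 14.0 TPM, by 0.60 (SE 0.17; limma, adjusted p = 0.769). The call was lost in 4 of 6 fits that left out 1 mouse, namely without control 1, 2 or 3 and without ethanol + stress 2. The value was -0.55, -0.62 and -0.63 without control 1, 2 and 3, and -0.43 without ethanol + stress 2. This transcript (chr2:107290639-107298502) makes up 65.4% of the Kcna4 sum. The Kcna4 sum itself overlapped with control and had a log2 fold change of -0.39 (SE 0.26; limma, adjusted p = 0.791). When only protein-coding transcripts were summed, the value for Kcna4 was that of this transcript and passed (limma, adjusted p = 0.759).

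The other transcripts called in comparisons with control were minor ones of their genes or held zeros. ENSMUST00000079169.4 of Kcnd3, at 7.65% of the gene's sum, measured 2.38, 3.63 and 2.53 TPM in control mice and 0.699, 0 and 0.344 TPM in ethanol + stress mice (limma, adjusted p = 0.769). ENSMUST00000164495.8 of Kcns3, at 11.2% of the sum, measured 0.762, 1.095 and 2.28 TPM in control mice and 0.0403, 0 and 0 TPM in ethanol + stress mice (limma, adjusted p = 0.769). ENSMUST00000032374.8 of Kcnj8, at 24.2% of the sum, was listed at 0, 0 and 0.119 TPM in control mice and at 1.59, 0.832 and 0.909 TPM in ethanol + stress mice (limma, adjusted p = 0.797). ENSMUST00000161236.7 of Kcnab2, at 0.18% of the sum, was listed at 1.14, 1.29 and 1.28 TPM in control mice at 0 in all 3 stress mice (limma, adjusted p = 1). In fits that left out 1 mouse, the Kcnj8 and Kcnab2 calls were lost in 6 of 6, and those of Kcnd3 (kept without ethanol + stress 1) and Kcns3 (kept without control 1) in 5 of 6. With all mice, the log2 fold changes of Kcnj8, Kcnab2, Kcnd3 and Kcns3 were 1.55, -1.80, -2.05 and -1.79. In those fits they ran from 1.35 to 1.68, -1.84 to -1.78, -2.35 to -1.72 and -2.04 to -1.47. The Kcnd3 call was also lost with a pseudocount of 0.1, at -3.14 (SE 1.08), and the Kcnab2 call with a pseudocount of 1, at -1.16 (SE 0.38).

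Genes outside the Kcn family that make proteins bound to or related to potassium channels gave 0 calls in any comparison. Of all genes, 0.461% to 0.971% were called. Of 27 listed, 26 were tested, among them Dpp6 (Kcnd partner), Lgi1 (Kcna partner), Abcc8 and Abcc9 (sulphonylurea receptors that pair with Kcnj11 and Kcnj8), Ank3 and the HCN cation channels. At a limma p under 0.05 there were 0 for ethanol (against 3.63% of all genes) and 0 for stress (against 2.4%). There were 2 for ethanol + stress (7.69%, against 5.37% of all genes) and 1 for the interaction (3.85%, against 2.69%). The 2 were Hcn4, with a log2 fold change of -0.50 (SE 0.22), and Lrrc26, a γ subunit of the Kcnma1 channel, with -0.64 (SE 0.29), both with a limma adjusted p of 0.791. For the interaction it was Sgk1, a kinase that acts on channel trafficking, at 0.83 (SE 0.34; adjusted p = 1). The median log2 fold changes of the 26 were -0.10, 0.00 and -0.22 for ethanol, stress and ethanol + stress, against 0.02, 0.00 and 0.02 for all genes. By library, their median deviation was -0.25 in ethanol 2, -0.26 in ethanol + stress 2 and -0.16 in ethanol + stress 3, but 0.10 in ethanol + stress 1, and -0.06 to 0.23 in the other 8. Abcc9 measured 2.32, 2.00 and 2.43 TPM in control mice and 2.59, 2.02 and 2.35 TPM in ethanol + stress mice, which overlap.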

How the data were processed

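Hippocampal RNA-Seq values of 12 mice, 3 per group by the labels, were analysed. The authors prepared stranded, rRNA-depleted libraries of total RNA and pseudo-aligned paired-end reads to mouse transcripts (GRCm38, mm10) with kallisto; tool versions are not given in the sources used here. The deposited values are a signal per transcript, TPM scaled between libraries, whose sums differ between libraries (889222 to 1173650). Of 115270 transcripts, 113580 matched GENCODE vM21 by identifier. kallisto divides shared read pairs among transcripts, so that genes overlapping or resembling others are less certain. Transcripts were summed per gene with Python 3.11.15 and pandas 2.3.3.

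The test used limma 3.58.1 (R 4.3.3; eBayes with trend, two-sided) on log2(TPM + 0.5), with the 4 groups in 1 model, for features of at least 0.1 TPM in 6 or more libraries (18434 genes and 59852 transcripts); fold changes understate those of low genes. A p under 0.01, the study's threshold, was a call, and adjusted p are Benjamini-Hochberg values over all features. Depth was recovered from steps between low values: 78.8% to 82.3% of them were whole read pairs within 0.1. With 3 mice per group no exact permutation test could go below 0.1. The fit was tested on simulated data with independent noise for each gene and library. These held no library-wide shift such as the length trend, so that the test does not cover the libraries that stand apart.

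The 78 genes, the gene lists and the tests were chosen with earlier results of these data known. Named genes are the highest of each subfamily and, per comparison, the 3 with the smallest p whose treated values all lay outside the control range; Kcnc2, Kcnj13, Kcnu1, Kcne3, Kcna4, Kcnq5, Kcnc1, Kcnd2 and Kcna1 were also singled out after their values were seen, as were Kcnq3, Kcnj4, Kcnj6, Kcnj9, Kcnj10, Kcnip1, Kcnip3, Kcnip4 and Kcnmb2 for their levels. Genes next to the level minimum, genes with a called transcript and those outside the control range are named as well. Some genes that this rule names are not reported here. Sums over genes were described and not tested. Class membership and length splits were set by subfamily and by the median length of the 78 genes. Alternatives were other pseudocounts, filters and scalings, removal of the length trend, eBayes without trend, fewer groups, protein-coding transcripts, a replicate block, other thresholds and leaving out each mouse. Recovered read pairs and leaving out the 3 libraries with a sum over 1100000 were chosen after seeing the data. Figures were drawn with matplotlib 3.10.9.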

Additional observations from a re-analysis of the deposited data

Results flagged for a closer look

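In all, 3 transcripts of potassium channel genes passed the test of the interaction of ethanol and stress (limma p under 0.01), a test of whether the effect of one exposure differed with the presence of the other. They were 1.29% of the 232 tested, against 0.854% of all transcripts, and the adjusted p was 1 for each. With 1 mouse left out, the count was 0 without control 1 and 1 without control 2 or stress 1, and the calls of Kcnip4, Kcns3 and Kcnab2 were lost in 6, 5 and 10 of 12 fits. Their interactions over these fits ran from -4.72 to -3.42, 1.47 to 1.91 and 2.07 to 3.29. ENSMUST00000176191.7 of Kcnip4, at 4.48% of the gene's sum, had an interaction of -3.85 (SE 1.07) on the log2(TPM + 0.5) scale. Control mice had 0, 0 and 1.87 TPM, with 3.66, 2.50 and 2.37 TPM in ethanol, 3.56, 3.26 and 1.98 TPM in stress and 0, 2.53 and 0 TPM in ethanol + stress mice. ENSMUST00000055673.1 of Kcns3, at 10.3% of the sum, had an interaction of 1.65 (SE 0.47), with 1.48, 0.957 and 1.07 TPM in control, 0.684, 0.192 and 0.181 TPM in ethanol, 0.584, 0.941 and 0.966 TPM in stress and 2.16, 1.45 and 1.198 TPM in ethanol + stress mice. ENSMUST00000161236.7 of Kcnab2, at 0.18% of the sum, had an interaction of 2.61 (SE 0.81), with zeros in 6 of the 12 mice. Values of exactly 0 in a minor transcript can be failed estimates, which was not tested.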

How the results depend on the processing

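The main counts of genes called were 0 in all 4 comparisons. They were 0 as well under other pseudocounts, filters, scalings and an adjusted p under 0.05, and with fewer groups in the 3 comparisons with control (the interaction needs all groups). Without the libraries with a sum over 1100000 they were 0 too, but with 1 ethanol + stress mouse and 2 ethanol mice left, assumed to vary like the others, which says nothing about stability. The count for ethanol + stress was 1 in eBayes without trend, 2 with protein-coding transcripts only, 3 on recovered read pairs and 4 at p under 0.05, and for ethanol it was 1 with the length trend removed, 1 on recovered read pairs and 2 at p under 0.05. At p under 0.05 it was 1 for stress and 2 for the interaction. Leaving out 1 mouse gave 0 to 5 genes for ethanol + stress (5 without ethanol + stress 1, 1 without control 1), 0 to 1 for ethanol (1 without ethanol 3), 0 to 1 for stress (1 without control 1 or stress 1) and 0 to 1 for the interaction (Kcnu1 without stress 1, Kcns3 without ethanol + stress 3). The shares of all genes called in these fits are not given here. Subfamily sums outside the control range were 0 for ethanol, 0 for stress and 2 for ethanol + stress, moved to 1 for ethanol and 1 for ethanol + stress with libraries rescaled to a common total, and ran from 0 to 7 for ethanol (7 without ethanol 3, 3 without ethanol 2), 0 to 4 for stress and 2 to 12 for ethanol + stress (12 without ethanol + stress 1) when 1 mouse was left out. Transcript counts, which do not say which transcripts, ran from 1 to 5 for ethanol (5 without ethanol 1), 0 to 3 for stress (0 without control 2, 3 without stress 2), 0 to 6 for ethanol + stress (6 without ethanol + stress 1, 0 without control 2, control 3 or ethanol + stress 2) and 0 to 3 for the interaction (0 without control 1), and for stress were 2 with a pseudocount of 0.1 and 0 with a pseudocount of 1. The log2 fold change of Kcnj13 in ethanol + stress mice ran from -0.58, a reversal without ethanol + stress 2, to 1.63 without ethanol + stress 3. The causes were not tested, other than that fewer mice can leave a narrower group range.

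Rescaling to a common total moved the median of all genes by over 0.1 for ethanol + stress, to -0.09, where the median of the 78 genes was -0.26. Replicate numbers were not treated as pairs. Over 18 pairs of the same number the deviations from group means had a median correlation of -0.01, and 1 exceeded 0.1. Over 36 pairs of different numbers the median was 0.02, and 6 exceeded 0.1. Library-wide shifts enter these correlations, so that they cannot show whether mice of the same number were siblings. With a replicate block the number of genes called was 0 in each comparison, as without it. The depth of 12050000 to 14920000 read pairs leaves 11 of the 78 genes under 50 read pairs (median library), Kcnk6 among them.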
